A study of Homo sapiens with 8 samples.

Results

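The regions described here are the NUP98-binding regions that lie within 5 Mb of a centromere in human embryonic stem cells (ESCs) and in neural progenitor cells (NeuPCs). They were chosen by position alone. On chromosomes 1 to 12 and 16 to 20, every region whose midpoint lay within 5 Mb of either edge of the 3 Mb centromere gap of the hg19 genome was kept. This gave 318 regions, 152 of the 2499 in the ESC list and 166 of the 3205 in the NeuPC list. The 17 chromosomes held 2018 ESC and 2644 NeuPC regions in all.

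The series holds 8 ChIP-Seq libraries, 1 per condition. The ESCs were of the line HUES6, grown without feeder cells in mTeSR1 medium, and the NeuPCs were derived from HUES6 in culture through embryoid bodies and rosettes and grown with N2, B27 and FGF2. Both pull-downs used the polyclonal NUP98 antibody with catalogue number 2292 on cells fixed in 1% formaldehyde for 10 min. Each cell type has 1 list made from 1 line, so no value below has an error from replicates, no test between the cell types was made, and every interval is a 95% interval that covers counting error only. The lists give no read numbers, and the depth that the study shows in a supplementary figure was not used here.

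NUP98 is a nucleoporin, a protein of the nuclear pore complex, that carries phenylalanine-glycine repeats and is found both at the pore and inside the nucleus. Human centromeres are built of long tandem arrays of alpha satellite DNA, on which the kinetochore assembles. The hg19 assembly leaves these arrays out as a gap. The sequence beside the gap is rich in satellite blocks and in segmental duplications, copies of which lie at several places in the genome, and next to some centromeres lie large blocks of constitutive heterochromatin. Short reads from such copies cannot always be placed at 1 site. How such reads were treated in making the lists is not given in the sources used here.

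The gaps, entered by hand, were compared with the lists. No ESC or NeuPC region lay inside any of the 17 gaps, 51.0 Mb in all, while the pooled lists held 1.95 regions per Mb outside them. On 12 of the 17 chromosomes the longest stretch without any pooled region was the one that held the gap. On the other 5 chromosomes (2, 3, 5, 6 and 10) a longer empty stretch lay elsewhere on the chromosome. The empty stretch over the gap had a median length of 3.90 Mb, but reached 21.4 Mb on chromosome 1, 19.6 Mb on chromosome 9 and 11.8 Mb on chromosome 16. On these 3 chromosomes the 5 Mb on the long-arm side therefore held no region of either list. Because the empty stretches were longer than the 3 Mb gaps, a misplaced gap edge could go unseen in this check. The distances given below rest on the edges as entered.

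**Figure D1:**
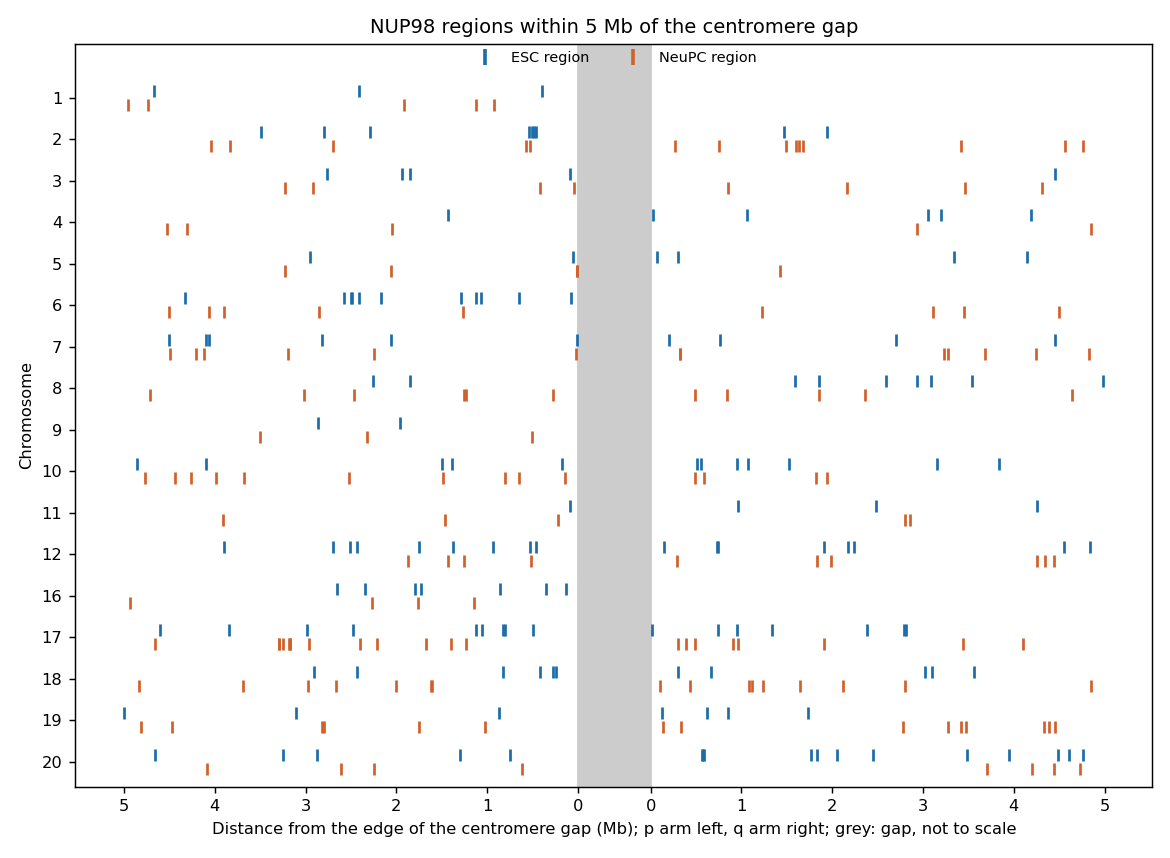
Positions of the 318 regions, 1 row per chromosome, with the distance from the edge of the centromere gap in Mb on the horizontal axis (short arm left, long arm right) and a tick per ESC or NeuPC region. The long-arm sides of chromosomes 1, 9 and 16 are empty in both lists, and 4 ESC ticks crowd beside the gap on the short arm of chromosome 2.

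Over the whole 5 Mb, the density of NUP98 regions beside the centromeres differed from that elsewhere on the same chromosomes by no more than counting error in either list. ESCs had 152 regions in 170 Mb of flank, or 0.894 per Mb (interval 0.758 to 1.05), against 0.840 per Mb (0.803 to 0.879) in the rest. The ratio of these densities was 1.06 (0.896 to 1.26). NeuPCs had 166 regions, or 0.976 per Mb (0.834 to 1.14), against 1.12 per Mb (1.07 to 1.16) in the rest, a ratio of 0.875 (0.743 to 1.02). Both intervals of the ratio include 1. The 170 Mb include the long-arm flanks of chromosomes 1, 9 and 16, which held no region. Leaving these flanks out, a setting added once the lists had been seen, left 155 Mb. The ratios were then 1.17 (0.983 to 1.38) in ESCs and 0.960 (0.815 to 1.12) in NeuPCs. Without chromosome 2, 10, 17 or 18, each left out in turn, the NeuPC interval lay below 1, with ratios of 0.824 to 0.848. Within 10 Mb in place of 5 Mb it also did (0.863, 0.767 to 0.969), while the ESC ratio within 10 Mb was 0.912 (0.798 to 1.04). Within 2 Mb the ESC ratio was 1.39 (1.10 to 1.74), an interval above 1, and the NeuPC ratio 0.929 (0.722 to 1.18). The ESC result thus depends on the window. The flanks took 7.11% of the length compared, and held 7.53% of the ESC regions (6.42 to 8.77%) and 6.28% of the NeuPC regions (5.38 to 7.27%). With each flank measured from the end of the empty stretch that holds the gap, which was added once the lists had been seen, the ESC ratio was 1.28 (1.09 to 1.49) and the NeuPC ratio 1.06 (0.914 to 1.22). In that setting a region lies at every edge by construction, and the long-arm flanks of chromosomes 1, 9 and 16 are no longer empty.

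There were 1.09 NeuPC regions per ESC region in the flanks (0.871 to 1.37) and 1.33 in the rest (1.25 to 1.41). The quotient of these, 0.822, had an interval of 0.650 to 1.04, which includes 1.

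In the first Mb from the gap the ESC regions were denser than in the rest, beyond counting error, while the interval of the NeuPC ratio included 1. The choice of 1 Mb steps followed a look at the values. Neighbouring regions are not independent of each other, so the intervals of these densities are too narrow. In ESCs the first Mb held 50 regions, or 1.47 per Mb (1.09 to 1.94), which was 1.75 times the density of the rest (1.29 to 2.32). The next steps held 29, 35, 17 and 21 ESC regions over the same 34 Mb each. Between 3 and 4 Mb the density was 0.5 per Mb (0.291 to 0.801), as it was between 5 and 6 Mb. That interval lies below the 0.840 per Mb of the rest. Between 4 and 5 Mb the density was 0.618 per Mb (0.382 to 0.944), an interval that includes 0.840. In NeuPCs the first Mb held 35 regions, or 1.03 per Mb (0.717 to 1.43), and the next steps 35, 28, 29 and 39. The NeuPC ratio of the first Mb to the rest was 0.923 (0.641 to 1.29). With the empty long-arm flanks of chromosomes 1, 9 and 16 left out, the first-Mb ratios were 1.92 (1.42 to 2.54) in ESCs and 1.01 (0.703 to 1.41) in NeuPCs. At the 5 Mb limit, the Mb just outside held 17 ESC and 41 NeuPC regions and the Mb just inside 21 and 39.

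**Figure D2:**
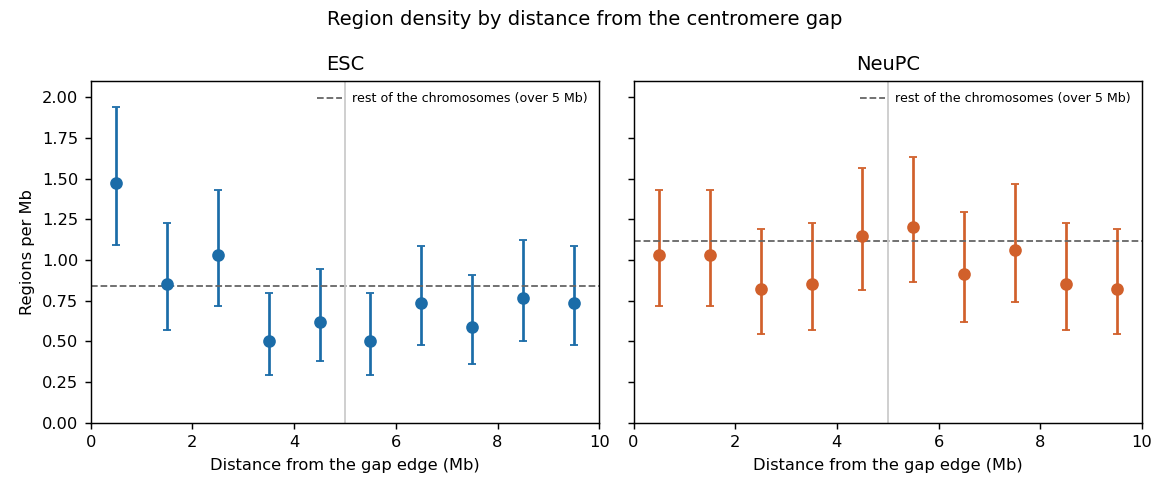
Density of ESC (left) and NeuPC (right) regions in steps of 1 Mb from the edge of the centromere gap, both sides of 17 chromosomes together, in regions per Mb. Points are the counts divided by 34 Mb, bars are exact Poisson 95% intervals, and the dashed line is the density over 5 Mb from the gap. The first ESC point, 1.47 per Mb, has its whole interval above that line. The ESC intervals of 3 to 4 and 5 to 6 Mb lie below it.

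Within 1 Mb of the gap there were 0.70 NeuPC regions per ESC region (0.441 to 1.10), and from 1 to 5 Mb there were 1.28 (0.984 to 1.68). Relative to the rest of the chromosomes the first value was 0.527 (0.331 to 0.832) and the second 0.967 (0.735 to 1.27). Each compares 1 list with 1 list, depth was not compared, and the 1 Mb limit was chosen after a look at the values. No difference between the cell types is therefore read from the interval below 1. The 50 ESC regions were spread over 24 of the 34 flanks, with at most 4 in any flank, and the 35 NeuPC regions over 20 flanks, with at most 5. With any single chromosome left out, the ESC ratio of the first Mb to the rest lay between 1.64 and 1.89 and the NeuPC ratio between 0.837 and 0.983. Measured from the end of the empty stretch that holds the gap, the ratios were 2.29 (1.77 to 2.93) in ESCs and 1.38 (1.03 to 1.82) in NeuPCs, so that the NeuPC value passed from below to above 1. That setting places a region of 1 of the lists at every edge by construction, which raises the ratios. Intervals above 1 there therefore do not show an excess.

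Most centromeres had a few regions in each list. The count per chromosome, both sides together, ran from 2 to 17 in ESCs and from 3 to 21 in NeuPCs, with a median of 9 in both. Regions of both lists lay on 30 of the 34 flanks. The 3 flanks empty in both lists were the long-arm sides of chromosomes 1, 9 and 16, and the long-arm side of chromosome 6 was empty in ESCs but held 4 NeuPC regions. Short-arm sides held 83 ESC and 92 NeuPC regions, and long-arm sides 69 and 74.

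Chromosomes 12, 17 and 20 led the ESC list. Chromosome 12 held 17 ESC regions beside its centromere, 9 on the short-arm and 8 on the long-arm side, which was 1.94 times the density of the rest of that chromosome (1.09 to 3.26). Chromosome 20 also held 17, 5 and 12 on the arms, a ratio of 1.63 (0.884 to 2.87). Chromosome 17 held 16, a ratio of 1.68 (0.905 to 2.93). Of these, chromosome 12 alone had an interval above 1, and the intervals are not adjusted for the 17 chromosomes.

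In NeuPCs the highest counts were 21 on chromosome 17 (ratio 1.29, interval 0.767 to 2.07), 16 on chromosome 18 (1.35, 0.733 to 2.33) and 15 on chromosome 19 (0.916, 0.488 to 1.61). No NeuPC ratio had an interval above 1. Chromosomes 12 and 20, which led the ESC list, held 10 and 8 NeuPC regions, ratios of 0.946 (0.443 to 1.80) and 0.622 (0.257 to 1.30). The NeuPC list held more flank regions than the ESC list on 11 chromosomes and fewer on 6.

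On chromosomes 1, 9 and 16 the empty long-arm side was counted in full in the flank length, which lowers the ratio. Whether the assembly holds sequence there was not checked. Ratios below 1 were found on 8 chromosomes in ESCs and on 11 in NeuPCs. Their whole interval lay below 1 on chromosomes 1 and 9 in ESCs and on chromosomes 9, 11 and 16 in NeuPCs. On chromosome 9 the ratios were 0.189 (0.0227 to 0.697) in ESCs and 0.302 (0.0614 to 0.903) in NeuPCs. On chromosome 1 they were 0.333 (0.0682 to 0.987) and 0.427 (0.137 to 1.01), and on chromosome 16 0.875 (0.338 to 1.91) and 0.328 (0.0875 to 0.868). Chromosome 11, where the empty stretch was 4.04 Mb, had ratios of 0.437 (0.117 to 1.15) and 0.401 (0.128 to 0.957). Just past the far end of the long empty stretches of chromosomes 1, 9 and 16, the first 5 Mb held 23 ESC and 24 NeuPC regions. They begin at 142535447 on chromosome 1, 66454684 on chromosome 9 and 47020440 on chromosome 16, beyond the 5 Mb limit, and are not among the 318.

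**Figure D3:**
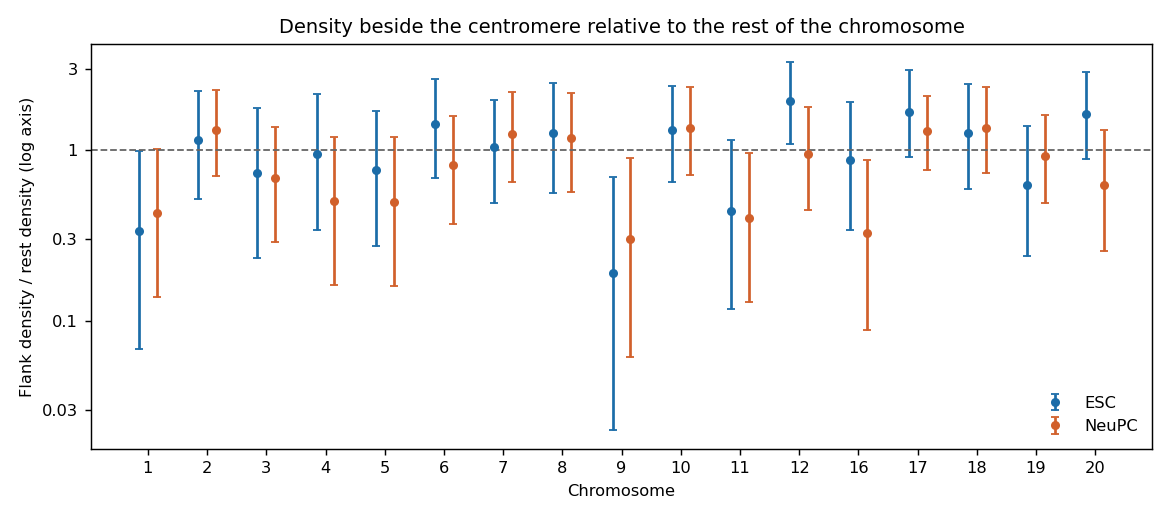
Density of regions beside the centromere divided by that in the rest of the same chromosome, for ESCs and NeuPCs on 17 chromosomes, on a log axis with exact 95% intervals. Chromosome 12 in ESCs is the point with its interval above 1, and chromosome 9 has the lowest ratio in both lists.

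The regions closest to the gap came to under 20 kb from its edge in both lists. On the short arm of chromosome 5, 2 NeuPC regions at chr5:46397815-46397938 and chr5:46397242-46397528 (hg19, as all positions here) lay 7.77 and 8.26 kb from the gap, with scores of 60.32 and 53.03. The score is the value the authors' peak caller gave each region, at least 50.01 in these lists and without a stated unit, so it is used here to rank regions within a list. They were 124 and 287 bp long and 286 bp apart. The nearest ESC region on the short arm sides, chr7:58037676-58037841, lay 16.6 kb from the gap with a score of 52.71.

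On the long-arm sides the closest were ESC region chr17:25274788-25274960, 11.9 kb from the gap with a score of 52.52, and NeuPC region chr18:18560538-18560637, 99.7 kb away with a score of 63.65. None of these closest regions was among the 5 flank regions of its list with the highest scores.

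Scores beside the centromeres were close to those elsewhere. The median ESC score was 55.4 in the flanks (quartiles 51.9 and 60.5) and 54.42 in the rest (51.91 and 59.81). In NeuPCs it was 59.0 (55.7 and 63.9) against 59.38 (56.89 and 64.6). Scores of 60 or more were found for 28.3% of ESC flank regions (21.3 to 36.2%) and for 24.6% of the rest (22.7 to 26.6%). In NeuPCs these shares were 42.2% (34.6 to 50.1%) and 44.4% (42.4 to 46.4%).

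The ESC regions of the first Mb had a median score of 58.27, and 40.0% of them reached 60 (26.4 to 54.8%). From 1 to 5 Mb the ESC median was 54.31 and the share 22.5% (14.9 to 31.9%). In the rest they were 54.42 and 24.6% (22.7 to 26.6%). The NeuPC medians of the first Mb, of 1 to 5 Mb and of the rest were 58.91, 59.05 and 59.38. The NeuPC shares were 40.0% (23.9 to 57.9%), 42.7% (34.1 to 51.7%) and 44.4% (42.4 to 46.4%). In both lists the intervals of these shares overlap. Those of the first Mb and the rest in ESCs did so only between 26.4 and 26.6%.

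The ESC flank region with the highest score was chr3:90413727-90413779, 91.1 kb from the gap on the short arm, with a score of 128.27. It was also the shortest ESC flank region, at 53 bp, and its score ranked at position 24 among the 2018 ESC regions of the 17 chromosomes. The nearest NeuPC region, chr3:90458007-90458060, lay 44.2 kb nearer to the gap, was the shortest NeuPC flank region, at 54 bp, and had a score of 66.6. No other ESC region beside a centromere reached 100.

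Next in the ESC flanks were chr4:48233605-48233696, 1.43 Mb from the gap with a score of 85.9, and chr6:58753686-58753802, 76.4 kb from the gap with a score of 84.68. Then came chr17:26211595-26211661 and chr17:28057181-28057251 on the long arm, both with a score of 74.38. They were 67 and 71 bp long. The region on chromosome 4 stood alone, with no other ESC region within 4449 kb.

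In NeuPCs the highest score beside a centromere was 211.47, at chr19:21890044-21890180, 2.79 Mb from the gap on the short arm. It ranked at position 4 among the 2644 NeuPC regions of the 17 chromosomes, and it was 137 bp long. A second NeuPC region, with a score of 60.72, lay 27.4 kb from it, and the nearest ESC region was 317 kb away. The other 4 of the highest 5 NeuPC scores, from 150.47 down to 92.9, belonged to a single group on chromosome 17.

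**Figure D4:**
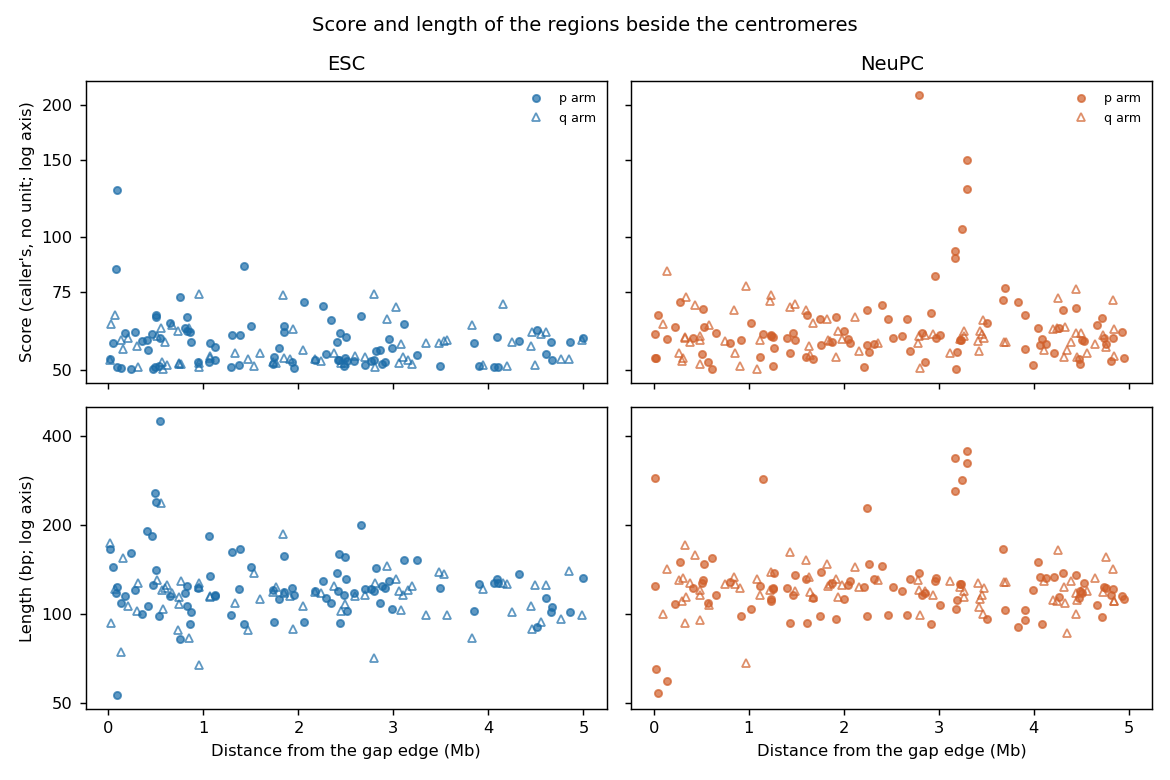
Score (top) and length in bp (bottom) of each ESC (left) and NeuPC (right) region against its distance from the gap edge in Mb, on log vertical axes, with filled circles for the short and open triangles for the long arm. Most scores lie between 50 and 75, the NeuPC column of high, long regions near 3.2 Mb is the chromosome 17 group, and the shortest flank regions, 53 bp in ESCs and 54 bp in NeuPCs, lie at the left edge.

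That group was the largest set of neighbouring NeuPC regions beside any of these centromeres. It held 6 regions in 128 kb of the short arm of chromosome 17, between 18965249 and 19093536, at 3.17 to 3.30 Mb from the gap. A pair at chr17:18965249-18965602 and chr17:18967105-18967427 had scores of 129.19 and 150.47. A single region at chr17:19015581-19015863 had 104.62, and a further pair at chr17:19091351-19091687 and chr17:19093278-19093536 had 92.9 and 89.7.

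These 5 regions were 259 to 354 bp long, against a median of 122 bp for NeuPC flank regions, and the members of the pairs lay 1502 and 1590 bp apart. The remaining member, chr17:19084832-19084935, was 104 bp long and had a score of 50.18. No ESC region lay in the interval, and the ESC region nearest to the group was 181 kb from its last member.

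The group carried most of the high and long NeuPC regions beside the centromeres. Scores of 100 or more were found for 4 of 166 NeuPC flank regions (2.41%, 0.660 to 6.05%), against 0.969% in the rest (0.622 to 1.44%), and without the group for 1 of 160 (0.625%, 0.0158 to 3.43%). Lengths over 200 bp were found in 8 of 166 (4.82%, 2.1 to 9.27%), against 1.17% of the rest (0.785 to 1.68%), and without the group in 3 of 160 (1.88%, 0.388 to 5.38%). All 8 lay on short arms, which held 92 of the 166 NeuPC flank regions, and those of the group come from a single locus. Leaving out the group was chosen after its values had been seen.

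The median lengths of flank regions were within 2 bp of those in the rest. The median was 119 bp in ESC flanks (quartiles 106 and 129) and 121 bp in the rest (112 and 127), and 122 bp in NeuPC flanks (111 and 131) and 121 bp in the rest (110 and 130). The flank regions covered 18857 bp in ESCs and 21259 bp in NeuPCs.

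Of the 4 ESC flank regions longer than 200 bp, 3 lay together on the short arm of chromosome 2, and the other was chr10:42806745-42806980, 236 bp long with a score of 62.3. The 3 on chromosome 2 were also the 3 longest ESC flank regions. They were chr2:91786709-91787158 (450 bp, score 59.12), chr2:91837685-91837940 (256 bp, 50.74) and chr2:91821643-91821880 (238 bp, 65.89). In NeuPCs the 3 longest, of 354, 337 and 323 bp, were all in the chromosome 17 group.

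The shortest flank region of each list lay within 100 kb of the gap. A length of at most 80 bp was found in 4 of the 35 NeuPC regions of the first Mb (11.4%, 3.20 to 26.7%), in 0 of the 131 from 1 to 5 Mb, which allows a share of up to 2.29% by 3 counts (Clopper-Pearson upper bound 2.78%), and in 1.86% of the rest (1.36 to 2.47%). In ESCs these shares were 6.0% (3 of 50, 1.25 to 16.5%), 0.980% (0.0248 to 5.34%) and 1.71% (1.18 to 2.41%). The limit of 80 bp was chosen after the lengths had been seen, and the ESC intervals overlap.

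The nearest region of the same list lay within 100 kb for 41 of the 152 ESC flank regions (27.0%, 20.1 to 34.8%) and for 18.97% of the rest (17.2 to 20.8%). In NeuPCs this held for 43 of 166 (25.9%, 19.4 to 33.3%) and 21.8% of the rest (20.2 to 23.5%), and the intervals overlap in both lists. The median distance to the nearest neighbour was 365 kb in ESC flanks and 405 kb in the rest, and 296 kb in NeuPC flanks and 293 kb in the rest. Neighbouring regions are not independent of each other, so these intervals are too narrow.

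The nearest region of the same list lay within 10 kb for 3.95% of ESC flank regions (1.46 to 8.39%) and 4.07% of the rest (3.22 to 5.07%). In NeuPCs the shares were 5.42% (2.51 to 10.0%) and 2.74% (2.14 to 3.47%), with overlapping intervals. Joined within 10 kb, the ESC flank regions formed 3 groups of 2 regions, on chromosomes 6, 12 and 20, that spanned 4.57 to 10.0 kb and had scores of at most 61.28. The NeuPC flank regions formed 4 groups, 1 of 3 and 3 of 2 regions. Of these 4, 2 belonged to the chromosome 17 locus already described, and 1 was the pair beside the gap on chromosome 5. The last was a pair on the long arm of chromosome 7, chr7:61378660-61378752 and chr7:61381918-61382087, 0.324 Mb from the gap with scores of 58.92 and 59.39. Elsewhere on the 17 chromosomes the ESC list had 30 such groups, with up to 18 regions, and the NeuPC list 31, with up to 7.

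Joined within 100 kb, each list had 18 groups beside the centromeres, which held 41 ESC and 43 NeuPC regions. The largest ESC groups had 4 regions. One lay on chromosome 2 from 91786709 to 91863165, 0.463 Mb from the gap, with scores of 50.74 to 65.89. Its members were 183 to 450 bp long. The other lay on the short arm of chromosome 6 from 56247733 to 56416809, 2.41 Mb from the gap, with regions of 117 to 156 bp and scores of 52.26 to 59.27.

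No ESC and NeuPC regions overlapped beside a centromere. Within 1 kb of the other list lay 0 of 152 ESC flank regions (upper bound 2.40%) and 0 of 166 NeuPC flank regions (2.20%). In the rest 5 of 1866 ESC regions (0.268%, 0.0871 to 0.624%) and 5 of 2478 NeuPC regions (0.202%, 0.0655 to 0.470%) did so. The bounds of the flanks include these shares, so the counts of 0 do not set the flanks apart. The closest pair beside any centromere was 2432 bp apart, at chr7:58037676-58037841 in ESCs (score 52.71) and chr7:58035179-58035243 in NeuPCs (score 53.07), both within 20 kb of the gap. The next pairs were 6027 bp apart on the long arm of chromosome 8, 6814 bp on the short arm of chromosome 2, 12518 bp on the short arm of chromosome 10 and 12827 bp on the short arm of chromosome 12. Scores in these 5 pairs ran from 50.83 to 68.59.

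A NeuPC region lay within 100 kb of 35 of the 152 ESC flank regions (23.0%, 16.6 to 30.5%) and of 22.0% of the rest (20.1 to 23.9%). An ESC region lay within 100 kb of 33 of the 166 NeuPC flank regions (19.9%, 14.1 to 26.8%) and of 16.9% of the rest (15.5 to 18.4%). The intervals overlap in both comparisons.

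With both lists pooled and joined within 100 kb, 28 groups beside the centromeres held regions of both cell types, 69 regions in all, while 13 groups held ESC and 13 held NeuPC regions alone. The largest mixed group was the one on the short arm of chromosome 2, from 91754027 to 91863165, with 4 ESC and 2 NeuPC regions in 109 kb. Its NeuPC members, chr2:91754027-91754135 and chr2:91793973-91794119, had scores of 51.94 and 62.41.

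On the long arm of chromosome 10, between 42745072 and 42839177, 2 ESC regions with scores of 59.54 and 62.3 lay between 2 NeuPC regions with scores of 51.56 and 63.03, 0.490 Mb from the gap. The pair beside the gap on chromosome 5 also had an ESC neighbour, chr5:46355340-46355483, with a score of 57.61.

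**Figure D5:**
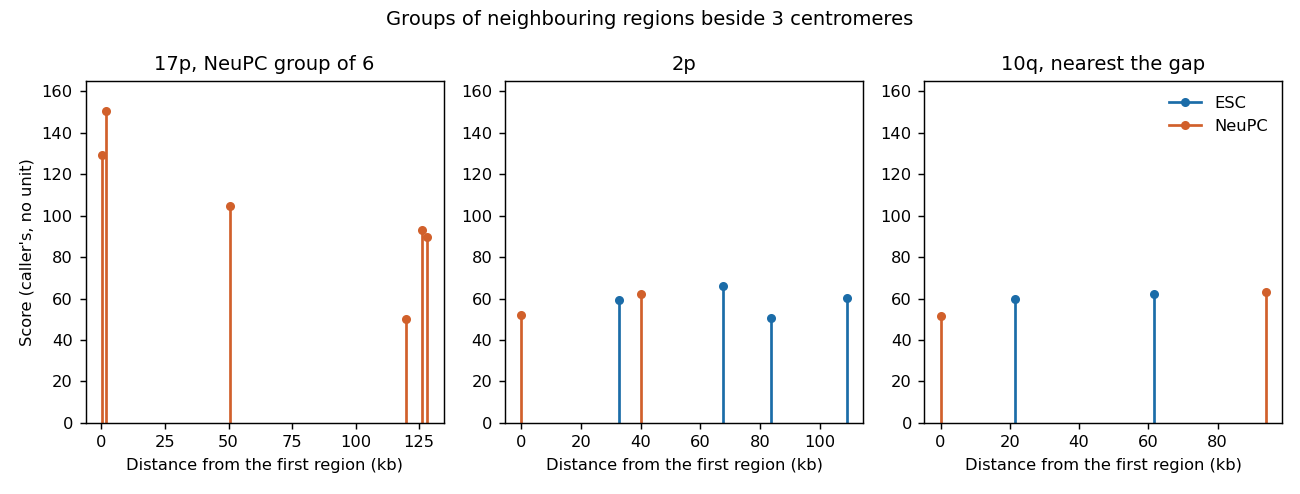
Scores of the regions in 3 groups against the distance from the first region in kb, for the NeuPC group on the short arm of chromosome 17 (left) and the mixed groups on the short arm of chromosome 2 (middle) and the long arm of chromosome 10 (right). The chromosome 17 group reaches 150.47 with no ESC region, and the mixed groups stay between 50.74 and 65.89.

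The share of flank regions among the highest scores was near their share of all regions. Of the 5% of regions with the highest scores in each list, 7 of 101 ESC regions (6.93%) and 9 of 132 NeuPC regions (6.82%) were flank regions. Over all scores, flank regions made up 7.53% of the ESC and 6.28% of the NeuPC regions of these chromosomes. The flanks took 7.11% of the length. For the highest 25% the shares were 8.50% and 6.20%.

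Gene names, exon positions and the sequence of these regions were not analysed here, because no genome or annotation in hg19 coordinates was used.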

How the data were processed

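NUP98 ChIP-Seq libraries of HUES6 ESCs and NeuPCs were sequenced by the authors, who deposited 1 list of regions per cell type. Each region carries a peak score from the authors' caller, without a unit. The lists name MACS, whereas the methods of the paper name the Genomatix software. The parameters of the MACS calls and their control library are not given in the sources used here. Library depth was not used. The submitters' processing notes name hg19 (GRCh37). Positions were counted from 1. The IMR90 list was not used.

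The 3 Mb centromere gaps of hg19 were entered by hand from general knowledge of the UCSC gap table, not read from a file, and were checked against the lists by counting regions inside them. Lengths outside the flanks ran from the first to the last pooled region of a chromosome, less gap and flanks. The end of a chromosome past its last region was not counted. Densities carry exact Poisson intervals, their ratios exact conditional intervals and shares Clopper-Pearson intervals, all at 95%. Beside the count of 0 short NeuPC regions the limit of 3 counts is also given. No p-value was computed. The density ratio was tested on simulated data. The regions and comparisons were chosen with earlier results of these data known. The regions named were the 5 highest scores, the 3 longest, the closest to the gap, the groups within 10 kb and the 5 closest pairs of each list. Other regions were named after their values were seen. Alternatives were windows of 2 and 10 Mb, the longest empty stretch as centromere, the top 50% of scores and merging within 1 kb. Python 3.11.15, numpy 2.4.6, scipy 1.17.1 and matplotlib 3.10.9 were used.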

Additional observations from a re-analysis of the deposited data

How the results depend on the processing

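Of 132 comparisons with an alternative, 110 stayed within the interval of the value reported (the quartiles for medians) and 22 did not. Those with a single chromosome left out reuse most of the regions, and all of them stayed within. The count is therefore not a measure of stability. The density ratio of ESC flanks to the rest was 1.39 within 2 Mb (1.10 to 1.74) and 1.76 within 1 Mb (1.30 to 2.33). It was 0.912 within 10 Mb, and 1.28 both with the longest empty stretch as centromere and with the empty stretch that holds the gap. The NeuPC ratio passed 1 in these last settings, at 1.11 and 1.06, where a region lies at every edge by construction. With the empty long-arm flanks of chromosomes 1, 9 and 16 left out, the ratios were 1.17 in ESCs and 0.960 in NeuPCs. This setting, that of 1 Mb and that of the stretch that holds the gap were chosen after the data were examined. By the longest stretch, 5 chromosomes had their centromere placed elsewhere. With single chromosomes left out the ratios ran from 1.01 to 1.13 in ESCs and from 0.824 to 0.910 in NeuPCs, whose interval lay below 1 without chromosome 2, 10, 17 or 18 and within 10 Mb (0.863).

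The share of the list in the flanks moved with the window by construction, to 3.91% (2 Mb) and 13.1% (10 Mb) in ESCs and 2.65% and 12.5% in NeuPCs. With the longest stretch as centromere it was 9.02% and 7.94%. The share of flank regions with a neighbour of their own list was 6.58% (20 kb) and 36.2% (200 kb) in ESCs and 6.63% and 41.0% in NeuPCs. It was 8.54% and 11.4% in the top 50% of scores, where fewer regions were left to be neighbours, and the median NeuPC score there was 65.2. No paired analysis was possible because there is 1 library per condition. Depth was not compared.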
